A study of Mus musculus with 20 samples.

Results

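Caerulein pancreatitis was described from 10 of the 20 mouse libraries of the series, which are the 5 labelled caerulein and the 5 labelled PBS. Both groups were wild-type C57BL/6 mice, and no altered allele or further agent is given for either. Caerulein was injected into the peritoneum at 50 µg/kg every hour, 6 times per day on 3 days per week for 3 weeks, PBS served as the control injection, and the pancreas was taken when the 3 weeks were complete. The age and sex of these mice are not given in the sources used here, and nothing says whether each library came from a separate mouse, so the p-values measure the spread between these libraries. Whole tissue was lysed, and the study used the comparison to ask which signals accompany chronic inflammation of the organ. The analysis below follows the acinar genes first, and then the duct, immune, antigen presentation, stromal and stress genes.

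The exocrine pancreas consists of acinar cells, which make digestive enzymes as inactive precursors and store them in zymogen granules, and of ducts, which carry the juice to the gut. Trypsinogen is the precursor of trypsin, the protease that activates the other precursors. Caerulein resembles the hormone cholecystokinin, overstimulates acinar cells and causes enzyme activation inside the cell. Repeated injury is known for loss of acinar tissue, conversion of acinar into duct-like cells, entry of leukocytes and deposition of matrix by stellate cells.

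The libraries were shallow for these genes. The 12 satellite-like predicted genes (Gm10800 and its relatives) took 66.8% to 94.3% of each library and were left out, and the usable rest ran from 69592 to 201611 counts in PBS and from 87788 to 591505 in caerulein libraries. Neither the usable counts nor the satellite share differed past the threshold between groups (two-sided exact permutation test of the means, p = 0.103 for both, adjusted p = 0.138 over 4 measures, smallest possible p 0.00794, n = 5 per group). All values below are expected counts, or normalized CPM, which scales a count to the library total over tested genes after TMM scaling. A single count was worth 12.5 to 26.8 normalized CPM in PBS and 2.2 to 16.5 in caerulein libraries. The TMM factors ran from 0.282 in PBS 7 to 1.70 in caerulein 19. The 12 acinar markers held 4954 to 67240 counts in each PBS library and 4456 to 12948 in each caerulein library, whereas 6 epidermal markers held 1 to 9. PBS 8 stood apart among PBS libraries by its counts for genes of macrophages and fibroblasts (178 counts for 6 macrophage markers against 7 to 32 in the other PBS libraries, and 547 for 7 fibroblast markers against 15 to 46). Results that include it were also computed without it.

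The called genes that fell were mostly acinar secretory genes, and those that rose included trypsinogen copies and immune, antigen presentation and early response genes. Of 1174 genes tested, 52 were higher with caerulein (4.43%) and 31 were lower (2.64%), which is 7.07% in both directions (edgeR quasi-likelihood test, Benjamini-Hochberg adjusted p under 0.05), and 322 had an unadjusted p under 0.05. The groups did not overlap for 40 tested genes that were higher (3.41%) and 28 that were lower (2.39%). The 10 largest falls among called genes without overlap were Sycn, Ctrc, Pnlip, Tff2, Ctrl, Amy2a5, Zg16, Arhgdig, 2210010C04Rik and Cpa1, of which all but Arhgdig are secretory products of acinar cells. The 10 largest rises were 1810009J06Rik, Gm2663, Prss1, Spp1, Dusp1, Slpi, H2-Ab1, Hbb-bs, Slc39a1 and Ppia. The median log2 fold change over all tested genes was -0.05. Scaling by library totals in place of TMM moved this median to 1.07 and gave 374 higher and 19 lower genes, so 95.2% of calls were higher in place of 62.7%. DESeq2 tested 8555 genes and called 639 higher (7.47%) and 94 lower (1.1%), which is 8.57% in both directions. With the depth of the library as a covariate, 6 genes were higher and 6 lower, and the named genes still past the threshold were 1810009J06Rik, Gm2663, Prss1, Spp1, Sycn, Ctrc, Pnlip, Tff2 and Rbpjl, so that no antigen presentation, leukocyte or early response gene named below passed. The label numbers fall into the runs 7 to 10 and 15 to 20, and each run holds both groups. The run 15 to 20 alone (3 against 3) gave 200 higher and 107 lower genes, and the run 7 to 10 alone (2 against 2) gave 2 and 4. None of the 83 called genes changed direction in any of the alternatives in which it was tested.

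About as many digestive enzyme genes fell as did not pass the test. Of 25 acinar enzyme genes, 21 were tested, 11 fell, 0 rose, and all 21 had a negative log2 fold change, with a median of -3.29, beside 2.64% of all tested genes that were lower. Their summed share of the usable counts ran from 7.73% to 37.7% in PBS and from 1.3% to 12% in caerulein libraries, so the ranges overlapped. Scaling by library totals left all 21 negative, with 11 lower and a median of -1.83, and leaving out PBS 8 and caerulein 10 also left 11 lower. DESeq2 tested 23 enzyme genes and called 17 lower and 1 higher, Amy2a1, beside 1.1% lower and 7.47% higher of all genes it tested. With a term for the run of label numbers 5 were lower, namely Pnlip, Cpa1, Ctrc, Amy2a5 and Ctrl, and the falls of Cela1, Cela3b, Clps, Pla2g1b, Rnase1 and Klk1 were lost (adjusted p from 0.0501 to 0.0641). Leaving out single libraries gave between 2 (without PBS 7 or PBS 17) and 19 (without caerulein 18). In bulk tissue, fewer acinar cells and less of the transcript per cell cannot be told apart.

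Pnlip, pancreatic lipase, lies at chr19:58652498-58681788 (GRCm38, plus strand). It had 4712, 3541, 621, 395 and 968 counts in PBS 7, 8, 15, 16 and 17, and 123, 107, 386, 153 and 252 counts in caerulein 9, 10, 18, 19 and 20. The highest caerulein library, 18, lay just under the lowest PBS library in counts, although it held more usable counts than PBS 16. Its normalized CPM fell from 38178 ± 36423 to 1496 ± 1651 (SD, n = 5 each), a log2 fold change of -4.68 ± 0.97 (SE, edgeR adjusted p = 0.0176), and the call held without each of the 10 libraries in turn.

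Cpa1, carboxypeptidase A, an enzyme that trims amino acids from the end of peptides, lies at chr6:30639218-30645363. It had 6201, 4419, 741, 583 and 1169 counts in the PBS libraries and 286, 317, 874, 405 and 655 in the caerulein libraries, in the same order. In normalized CPM the groups did not overlap (49054 ± 48116 against 3520 ± 3663, SD, n = 5 each). The log2 fold change was -3.80 ± 0.91 (SE, edgeR adjusted p = 0.0262), and the call was lost without PBS 7, 15 or 17 or caerulein 20 (adjusted p from 0.0513 to 0.074).

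Ctrc, a chymotrypsin that degrades trypsin, had 64, 36, 8, 9 and 11 counts in PBS and 1, 0, 6, 1 and 2 in caerulein libraries (log2 fold change -5.29 ± 1.03, adjusted p = 0.0142). Amy2a5, a pancreatic amylase, fell by 4.05 ± 0.93 on the log2 scale (edgeR adjusted p = 0.0211). The other enzymes that fell were Ctrl, Pla2g1b, Rnase1, Klk1, Cela3b, Cela1 and Clps, with log2 fold changes from -4.08 to -3.29. Enzymes that did not pass included Ctrb1, chymotrypsinogen (-2.97, adjusted p = 0.0576), Cpb1 (-2.44, adjusted p = 0.0681) and Pnliprp1 (-2.21, adjusted p = 0.0935). Amy2a2, Amy2a3 and Amy2a4 carry equal counts in every library and cannot be told apart, and their common value was -1.76 (adjusted p = 0.126).

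Granule proteins showed the largest single fall. Of 14 listed granule and secretory proteins, 13 were in the table and 10 were tested. Of these 6 fell, beside 2.64% of all tested genes, and 0 rose, with a median log2 fold change of -2.93. The summed share of the list was 2.23% to 7.77% of usable counts in PBS and 0.113% to 1.03% in caerulein libraries, without overlap. Sycn (chr7:28540885-28542209, plus strand) encodes syncollin, a protein of the zymogen granule membrane. It had 9179, 4967, 1293, 1101 and 2320 counts in PBS and 164, 39, 309, 41 and 54 in caerulein libraries. All PBS libraries were above all caerulein libraries even before scaling. Its log2 fold change was -5.86 ± 1.18 (SE, edgeR adjusted p = 0.0174), and the call held without each of the 10 libraries in turn.

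Tff2, a trefoil peptide, fell by 4.46 ± 1.0 on the log2 scale (edgeR adjusted p = 0.0211) and Zg16, a lectin of the granule, by 3.94 ± 1.0 (adjusted p = 0.0321). Erp27, a chaperone-like protein of the endoplasmic reticulum, Gp2, the main glycoprotein of the granule membrane, and Dmbt1 were also called. Spink1, the trypsin inhibitor of the granule, had a log2 fold change of -2.83 and did not pass (adjusted p = 0.0549). With a term for the run of label numbers Sycn, Tff2 and Zg16 were still called, and Gp2, Erp27 and Dmbt1 were not (adjusted p from 0.0701 to 0.0898). Leaving out PBS 8 and caerulein 10 left 5 members lower, scaling by library totals left 3, and leaving out single libraries gave 1 (without PBS 7, 15 or 17) to 9 (without PBS 8).

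**Figure D1:**
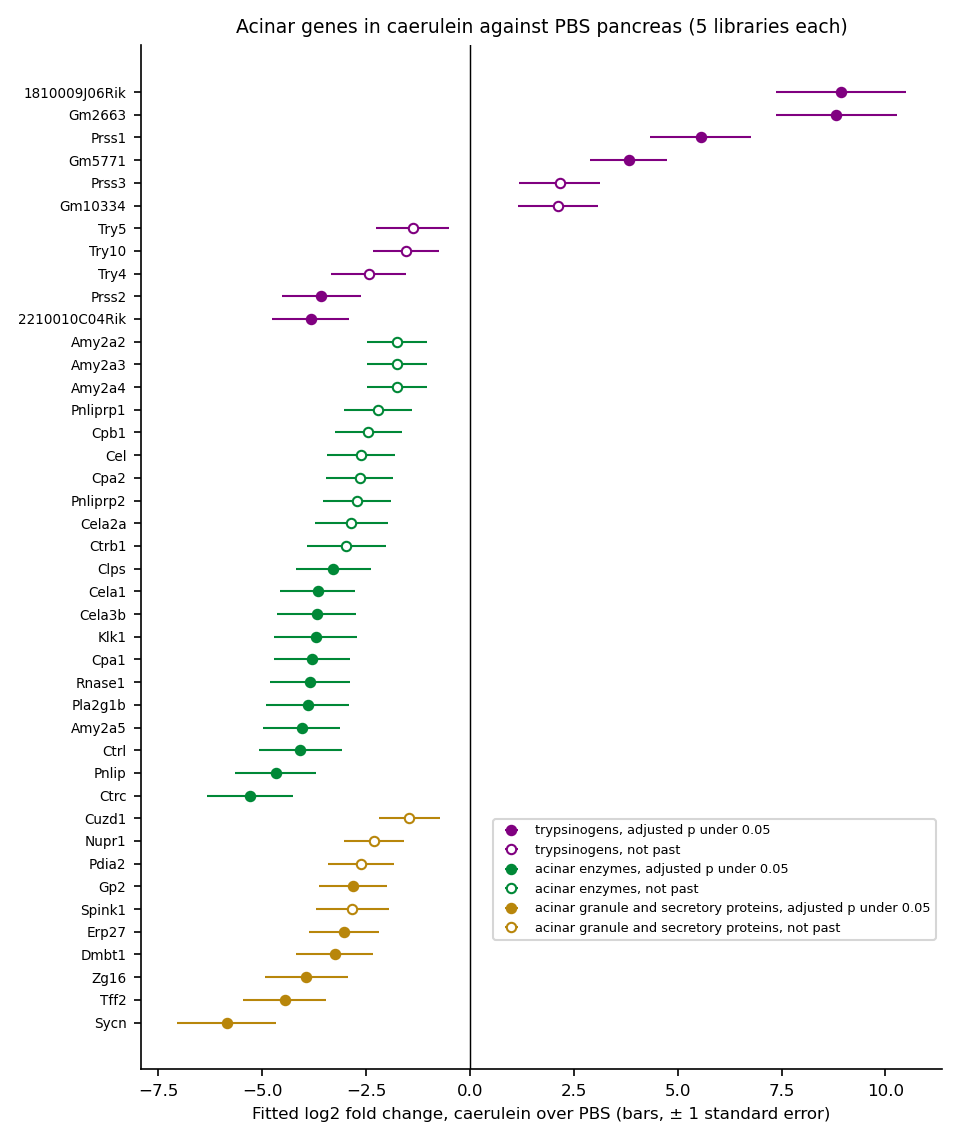
Fitted log2 fold change (caerulein over PBS, horizontal axis) of the 42 tested trypsinogen, enzyme and granule genes, with bars of 1 standard error, filled where the adjusted p was under 0.05. All 21 enzyme and all 10 granule genes lie left of 0, whereas trypsinogens lie on both sides. The values of 1810009J06Rik and Gm2663, which had 0 counts in PBS, depend on the prior count of the fit.

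Acinar control genes were near the limit of detection. Of 8 listed acinar transcription factors and the cholecystokinin receptor, 3 were tested and 1 fell, beside 2.64% of all tested genes. Rbpjl, a subunit of the PTF1 complex that drives enzyme genes, had 56, 33, 5, 9 and 8 counts in PBS and 5, 11, 10, 7 and 6 in caerulein libraries, where 1 count weighs less (log2 fold change -3.27 ± 0.78, edgeR adjusted p = 0.0262). The call held in 5 of 10 fits without 1 library. Cckar, the receptor on which caerulein acts, had a log2 fold change of -2.35 (adjusted p = 0.0888), and Xbp1, a factor of the secretory stress response, one of 1.91 (adjusted p = 0.125).

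The make-up of the acinar transcripts changed as well as their amount. Each gene's count was divided by the total of the 42 tested acinar genes of the same library, which removes the library scaling. Of 40 distinct values (the equal amylase copies taken once), 12 were higher and 12 were lower in every caerulein than in every PBS library; the background on the normalized CPM scale over all tested genes is 3.41% and 2.39%. This is a description, since the genes were chosen with their values known.

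Sycn made up 8.1%, 5.61%, 9%, 11.7% and 9.86% of acinar counts in PBS 7, 8, 15, 16 and 17, and 1.86%, 0.381%, 1.17%, 0.403% and 0.275% in caerulein 9, 10, 18, 19 and 20. Pnlip made up 4% to 4.32% in PBS and 1.05% to 1.5% in caerulein libraries, again without overlap. Other genes with lower shares were Ctrc, Tff2, Zg16, Ctrl, 2210010C04Rik, Pla2g1b, Rnase1, Cpa1, Cela1 and Cela3b. Outside the trypsinogens, genes with higher shares were Cpb1 (1.32% ± 0.137 in PBS, 2.72% ± 0.865 in caerulein, SD, n = 5 each), Pnliprp1 (1.65% ± 0.185 and 3.38% ± 0.528) and Cuzd1 (0.0376% ± 0.0156 and 0.134% ± 0.0557). Ctrb1 had the largest mean share in both groups, 15.7% ± 1.68 in PBS and 15.3% ± 5.13 in caerulein libraries, and its ranges overlapped. Thus Cpb1 and Pnliprp1, which did not pass the test on normalized CPM and had negative fold changes there, took a larger part of the acinar counts.

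**Figure D2:**
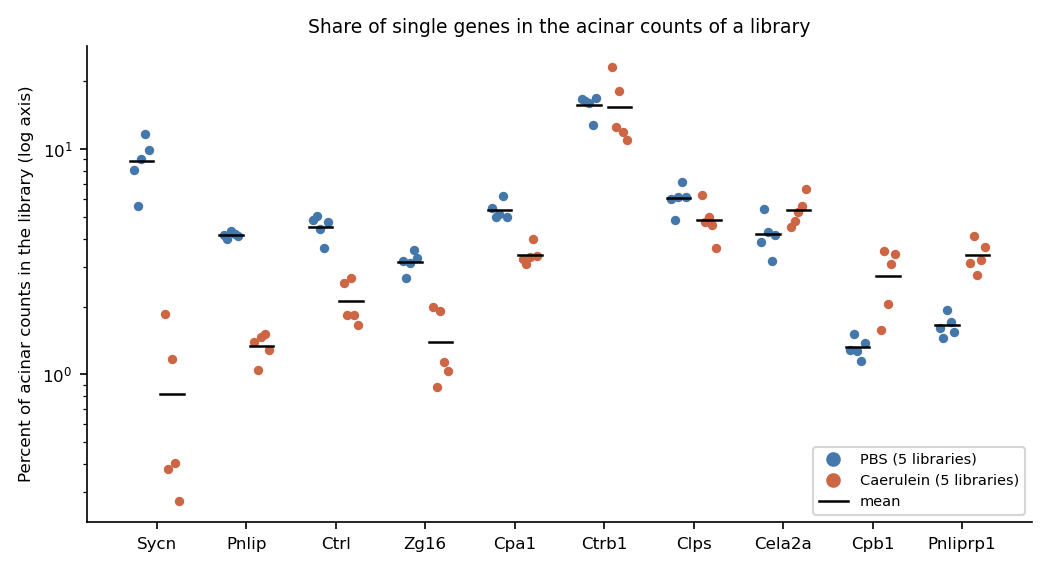
Percent of the acinar counts of a library (log axis) that fell on each of 10 genes, with 1 point per library and the mean as a line. Sycn and Pnlip are lower in every caerulein library (for Pnlip 1.05% to 1.5% against 4% to 4.32%), Ctrb1 overlaps, and Cpb1 and Pnliprp1 are higher in every caerulein library.

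Trypsinogen genes split into copies that rose and copies that fell. All 12 lie in 1 cluster on chromosome 6 between positions 40964754 and 41525079 (GRCm38). Of these, 11 were tested, 4 rose (1810009J06Rik, Gm2663, Prss1 and Gm5771) and 2 fell (2210010C04Rik and Prss2). Over all tested genes 4.43% were higher and 2.64% lower. The 4 and 2 calls were unchanged without PBS 8 and caerulein 10. With a term for the run of label numbers the fall of Prss2 was lost (adjusted p = 0.0743). Fits without single libraries called 2 to 4 higher (2 without PBS 15, 16 or 17) and 0 to 3 lower (0 without PBS 7, 15 or 17 or caerulein 20).

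Gm2663 (chr6:40995830-40999479, minus strand) had 0 counts in all 5 PBS libraries and 35, 42, 70, 45 and 94 counts in caerulein 9, 10, 18, 19 and 20. Its mean of 356 ± 294 normalized CPM (SD, n = 5) was at least 5.59-fold higher than 3 counts per PBS library would give (edgeR adjusted p = 0.0128). 1810009J06Rik was also at 0 in PBS and had 15, 80, 112, 47 and 54 counts with caerulein, which was at least 5.97-fold higher by the same floor (adjusted p = 0.0128). Both calls held without each of the 10 libraries in turn. The transcripts of these 2 genes are 99.4% identical, and 16.5% and 18.5% of their words of 50 bases occur in no other trypsinogen, so their division between the genes is uncertain.

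Prss1 (chr6:41458932-41463786, plus strand) had 5, 0, 0, 0 and 0 counts in PBS and 60, 56, 305, 115 and 122 in caerulein libraries. Only PBS 7 held any counts, and each caerulein library held more. The log2 fold change was 5.55 ± 1.21 (SE, edgeR adjusted p = 0.0211), and it lost the call without PBS 15, 16 or 17 (adjusted p from 0.0578 to 0.07). Gm5771 rose by 3.83 ± 0.93 on the log2 scale (adjusted p = 0.0262). Prss3 and Gm10334, which are close copies, had log2 fold changes of 2.16 and 2.12 and did not pass (adjusted p = 0.163 for both).

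2210010C04Rik (chr6:41030268-41035509, minus strand) had 4923, 3851, 718, 535 and 1127 counts in PBS and 233, 254, 786, 237 and 458 in caerulein libraries. The groups did not overlap in normalized CPM. Its log2 fold change was -3.83 ± 0.92 (SE, edgeR adjusted p = 0.0262), and the call was lost without PBS 7, 15 or 17 or caerulein 20 (adjusted p from 0.0513 to 0.074). None of its words of 50 bases occurs in another trypsinogen (100% unique), and 92.2% of those of Prss2 are unique to it, so reads of these 2 genes are well separated. Prss2 had a log2 fold change of -3.58 ± 0.95 (adjusted p = 0.0338). Try4, Try5 and Try10 did not pass (-2.43, -1.38 and -1.54).

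Because copies share sequence, the 12 genes were also joined into 6 groups whose transcripts are at least 95% identical, and each group was expressed as a share of the trypsinogen counts of its library (1719 to 21719 counts). The group of Prss1, Prss3, Gm5771 and Gm10334 held 0.437%, 0.172%, 0.866%, 0.0582% and 0.345% of trypsinogen counts in PBS 7, 8, 15, 16 and 17. It held 15.2%, 13%, 16.6%, 18.1% and 15% in caerulein 9, 10, 18, 19 and 20. The 95% Wilson interval of the highest PBS library was 0.567% to 1.32% and that of the lowest caerulein library was 11.8% to 14.4%; these intervals cover counting error only. The pair of Gm2663 and 1810009J06Rik held 0 in PBS, which allows a share of up to 0.0138% to 0.175% by library, and 2.1% to 4.57% in caerulein libraries. 2210010C04Rik held 26.7% ± 4.07 in PBS and 9.48% ± 0.579 in caerulein libraries, and Prss2 30.9% ± 4.67 and 15.7% ± 1.16 (SD, n = 5 each). Try4 with Try5 held 41.8% ± 3.16 and 55.5% ± 0.972. In all 6 groups the caerulein libraries lay on 1 side of the PBS libraries, which is given as a description without a test. These shares of 1 total also depend on each other.

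**Figure D3:**
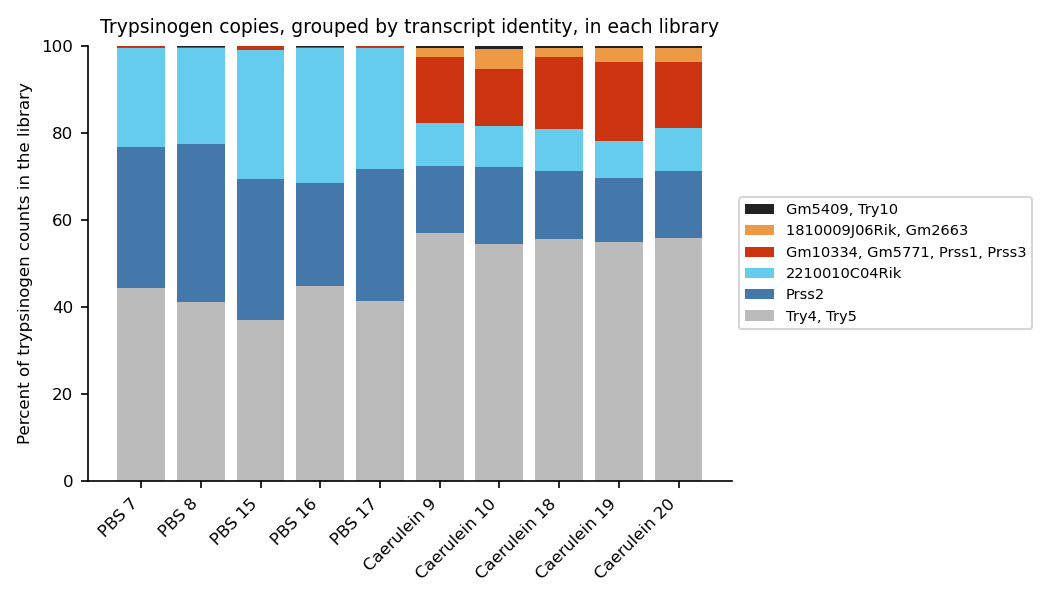
Stacked shares of 6 trypsinogen groups, joined by at least 95% transcript identity, in percent of the trypsinogen counts of each library. The group with Prss1, Prss3, Gm5771 and Gm10334 takes 13% to 18.1% of each caerulein bar and at most 0.866% of each PBS bar.

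The promoters of 5 of the 6 called trypsinogens are shown because genes of 1 cluster moved in opposite directions; 1810009J06Rik had no entry. They run from 250 bases before to 50 bases after the start (RefSeq, GRCm38.p6), 5′ to 3′ on the gene's strand. Capitals mark CACCTG in either orientation (CACCTG or CAGGTG), a form of the E-box CANNTG, and TTTCCCA in either orientation (TTTCCCA or TGGGAAA), the other part of a PTF1 site. The first 3 are of genes that rose, at chr6:41458680-41458979, chr6:40999430-40999729 and chr6:41392106-41392405, and the last 2 of genes that fell, at chr6:41521526-41521825 and chr6:41035460-41035759.
Prss1: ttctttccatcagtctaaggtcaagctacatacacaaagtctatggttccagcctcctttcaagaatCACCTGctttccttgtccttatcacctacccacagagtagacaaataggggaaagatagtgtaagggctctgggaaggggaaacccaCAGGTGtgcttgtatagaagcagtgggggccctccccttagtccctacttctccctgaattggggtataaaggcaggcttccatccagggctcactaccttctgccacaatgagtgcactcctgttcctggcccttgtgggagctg
Gm2663: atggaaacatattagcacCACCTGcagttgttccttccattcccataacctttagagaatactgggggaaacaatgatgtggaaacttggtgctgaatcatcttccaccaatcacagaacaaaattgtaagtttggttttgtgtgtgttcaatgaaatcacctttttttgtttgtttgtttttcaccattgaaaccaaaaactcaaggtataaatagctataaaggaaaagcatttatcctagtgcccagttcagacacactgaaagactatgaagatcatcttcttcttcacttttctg
Gm5771: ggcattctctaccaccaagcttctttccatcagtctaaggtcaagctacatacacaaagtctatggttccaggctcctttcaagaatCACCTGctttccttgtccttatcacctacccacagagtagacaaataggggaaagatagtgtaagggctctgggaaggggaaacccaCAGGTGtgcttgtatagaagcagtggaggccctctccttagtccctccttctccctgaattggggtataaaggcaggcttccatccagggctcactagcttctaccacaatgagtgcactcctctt
Prss2: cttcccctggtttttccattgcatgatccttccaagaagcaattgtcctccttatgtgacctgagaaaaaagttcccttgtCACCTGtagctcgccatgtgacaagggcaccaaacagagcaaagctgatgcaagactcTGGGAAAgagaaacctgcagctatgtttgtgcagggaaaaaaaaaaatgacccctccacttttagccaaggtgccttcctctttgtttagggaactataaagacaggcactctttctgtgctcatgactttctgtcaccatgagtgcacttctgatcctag
2210010C04Rik: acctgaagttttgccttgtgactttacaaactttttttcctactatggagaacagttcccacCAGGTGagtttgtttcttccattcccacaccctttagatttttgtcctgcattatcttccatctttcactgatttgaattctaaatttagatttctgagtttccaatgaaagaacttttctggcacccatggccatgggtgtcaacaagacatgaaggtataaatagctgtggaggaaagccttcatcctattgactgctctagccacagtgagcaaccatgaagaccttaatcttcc

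CACCTG was present in all 8 trypsinogen promoters of the table (4 of the 12 genes had no entry), against 22.6% of all 27025 genes with a promoter of this length. It was present in 10 of 22 acinar enzyme promoters (45.5%) and in 3 of 8 granule protein promoters (37.5%). The motif planned beforehand was the wider E-box CANNTG, which is common. It occurred in all 8 trypsinogen promoters, 86.4% of enzyme promoters, 87.5% of granule protein promoters and 75% of all. TTTCCCA occurred in 1 trypsinogen promoter, that of Prss2, in 22.7% of enzyme promoters, in 2 of 8 granule protein promoters (25%) and in 9.16% of all. The promoters of Prss1 and Gm5771, which both rose, were 97.5% identical over 280 aligned bases. That of Gm2663, which also rose, aligned with each of them over only 18 bases (77.8%). Among genes that moved in opposite directions, the promoters of Gm2663 and 2210010C04Rik shared 65.3% over 202 bases and those of Prss1 and Prss2 64.9% over 188. A letter match is a description of sequence and does not show binding, and related promoters are not independent.

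Duct and regenerative genes were mostly too low to test. Of 25 duct and metaplasia genes, 5 were tested and 1 rose, beside 4.43% of all tested genes. Spp1, osteopontin, a secreted phosphoprotein of duct cells and macrophages (chr5:104435118-104441050), had 2, 1, 0, 1 and 1 counts in PBS and 7, 183, 54, 122 and 632 in caerulein libraries. Every caerulein library exceeded every PBS library. Its log2 fold change was 4.83 ± 0.86 (SE, edgeR adjusted p = 0.0128), and the call held without each of the 10 libraries in turn. Over the whole list, the share of usable counts was 0.0575% to 0.107% in PBS and 0.203% to 0.642% in caerulein libraries. The summed normalized CPM of the list overlapped, at 1072 to 4096 in PBS and 2567 to 8776 in caerulein libraries. Keratins of duct cells were low in PBS (Krt19 had 1, 1, 0, 1 and 0 counts and Krt7 0, 2, 0, 1 and 0) and reached 158 and 142 counts in caerulein 20. DESeq2, which tested 14 list members, called 6 higher, Krt19 and Krt7 among them (adjusted p = 0.0019 and 0.022), beside 7.47% of all genes it tested.

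The 4 tested Reg genes, which encode secreted lectins of injured acinar cells, did not pass. Reg1 had a log2 fold change of -1.65 ± 0.83 (adjusted p = 0.203) and Reg2 one of -1.39 ± 0.83 (adjusted p = 0.283), and with scaling by library totals 2 of the 4 were positive. The insulin genes Ins2 (0.61 ± 0.75, adjusted p = 0.595) and Ins1 (0.51 ± 0.68, adjusted p = 0.625) did not pass either. Glucagon, Gcg, had 2, 0, 0, 0 and 0 counts in PBS and 1, 7, 14, 14 and 199 in caerulein libraries and was not tested.

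Leukocyte genes held most of their counts in caerulein 10, 19 and 20. These also had the most usable counts (555718, 376579 and 591505, against 87788 and 139588 in caerulein 9 and 18). As a share of usable counts, the macrophage list was at 0.557% in caerulein 20 and 0.512% in caerulein 18. Of 30 macrophage and monocyte genes, 10 were tested, all 10 had a positive log2 fold change (median 2.08), and 1 passed, beside 4.43% of all tested genes that were higher. Lyz2, lysozyme of macrophages and neutrophils (chr10:117277331-117282321), had 3, 75, 3, 2 and 3 counts in PBS and 38, 5722, 98, 2609 and 970 in caerulein libraries. PBS 8 held more than the other PBS libraries together and overlapped the lowest caerulein library. The log2 fold change was 4.30 ± 1.07 (SE, edgeR adjusted p = 0.0286), and the call was lost without PBS 7, 15, 16 or 17 (adjusted p from 0.0822 to 0.107). The complement genes C1qb (2.06) and C1qc (2.75) and the receptor Csf1r (1.92) did not pass (adjusted p from 0.0721 to 0.156).

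Over the macrophage list the share of usable counts was 0.0308% to 0.371% in PBS and 0.349% to 3.27% in caerulein libraries, with PBS 8 at the top of the PBS range. Without PBS 8 and caerulein 10, 6 members were tested and 3 rose, beside 98 of all 715 genes tested there. DESeq2 called 13 of 28 higher, beside 7.47% of all genes it tested. Of 15 lysosomal cathepsins and related genes, 9 were tested, all 9 were positive and 1 rose, beside 4.43% of all tested genes. This was Ctsl (2.36 ± 0.65, edgeR adjusted p = 0.0372), a protease of the lysosome. That call held in 3 of 10 fits without 1 library.

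Among 18 lymphocyte genes 4 were tested and 1 rose, beside 4.43% of all tested genes. Ighm, the heavy chain of immunoglobulin M (chr12:113418558-113422730), had 9, 55, 9, 32 and 40 counts in PBS and 31, 2543, 127, 4782 and 2949 in caerulein libraries. Caerulein 9 lay within the PBS range in counts. It rose by 3.38 ± 0.87 on the log2 scale (SE, edgeR adjusted p = 0.0321), and the call was lost without any of PBS 7, 15, 16 and 17 and caerulein 19 and 20 (adjusted p from 0.0513 to 0.111). Igkc and Jchain, parts of secreted antibodies, were at 2.67 and 2.82 and did not pass (adjusted p = 0.0763 and 0.0724). The T cell markers Cd3d, Cd3e, Cd3g and Trac summed to 0 to 7 counts in PBS and to 4, 13, 0, 146 and 43 in caerulein libraries, and none was tested. Their summed normalized CPM overlapped, at 0 to 163 in PBS and 0 to 446 in caerulein libraries (medians 25 and 65.9).

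Of 15 granulocyte and mast cell genes 1 was tested. Slpi, a secreted inhibitor of leukocyte elastase, had 0, 6, 0, 0 and 0 counts in PBS and 12, 791, 27, 127 and 59 in caerulein libraries (log2 fold change 4.73 ± 1.04, edgeR adjusted p = 0.0211). The groups did not overlap, and the call was lost without PBS 7, 15, 16 or 17 (adjusted p from 0.0578 to 0.074). The 4 neutrophil markers (Csf3r, Cxcr2, Ly6g, Retnlg) summed to 0 to 8 counts in PBS and to 3, 87, 2, 16 and 13 in caerulein libraries. Their summed normalized CPM overlapped, at 0 to 180 in PBS and 21.6 to 191 in caerulein libraries (medians 50.1 and 48.9). A haemoglobin gene was called higher as well. Hbb-bs, beta globin of red cells, had 29, 48, 71, 26 and 18 counts in PBS and 135, 7056, 389, 1975 and 5350 in caerulein libraries (3.29 ± 0.76, adjusted p = 0.0211). The part of blood in the leukocyte counts was not tested.

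**Figure D4:**
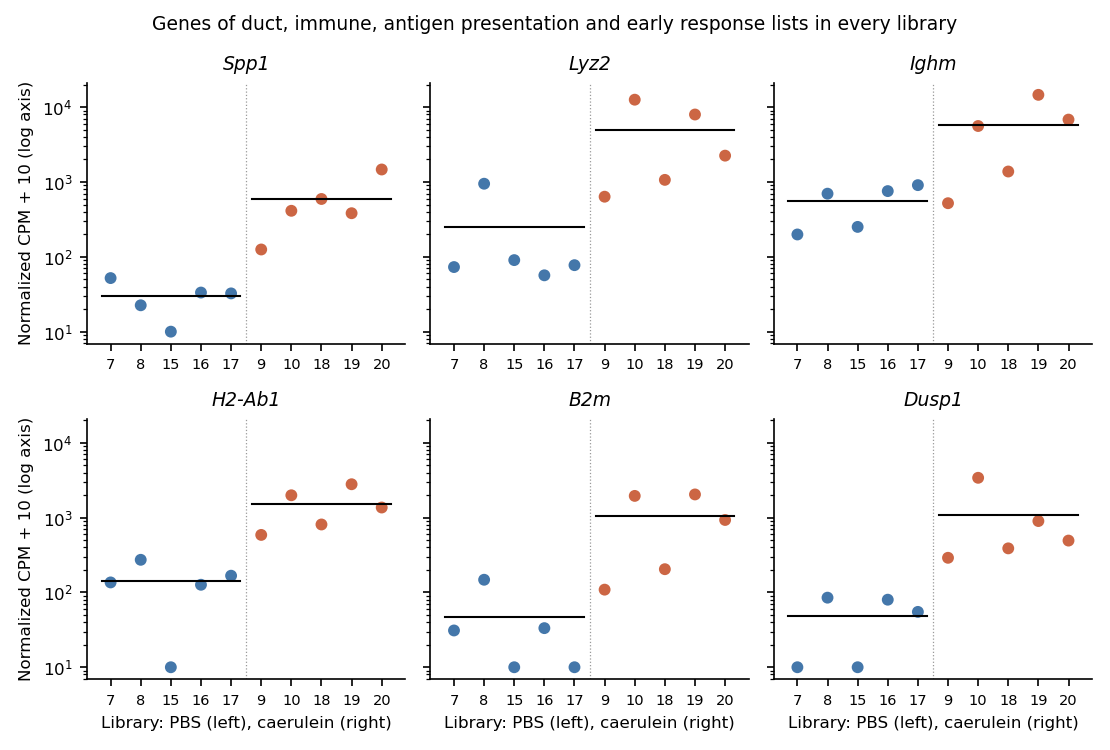
Normalized CPM plus 10 (log axis) of 6 genes in each library, with group means as lines. Spp1, H2-Ab1 and Dusp1 do not overlap between groups, whereas PBS 8 lies above the lowest caerulein library for Lyz2, Ighm and B2m. For Ighm, PBS 16 and PBS 17 lie above it too.

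MHC class II genes rose, and class I genes rose in part. Of 10 class II genes, which present peptides to CD4+ T cells, 4 were tested and all 4 rose, beside a background of 4.43% of tested genes. H2-Ab1 (chr17:34257689-34269419), a beta chain, had 6, 21, 0, 5 and 7 counts in PBS and 35, 899, 74, 910 and 586 in caerulein libraries. The lowest caerulein library lay above the highest PBS library. Its normalized CPM was 133 ± 94.1 in PBS and 1498 ± 899 in caerulein (SD, n = 5 each), with a log2 fold change of 3.45 ± 0.79 (SE, edgeR adjusted p = 0.0211). The call was lost without PBS 7, 15, 16 or 17 (adjusted p from 0.0661 to 0.074).

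H2-Eb1 rose by 3.07 ± 0.75 (adjusted p = 0.0262), H2-Aa by 2.41 ± 0.65 (adjusted p = 0.0349) and Cd74, the invariant chain that guides class II molecules, by 2.43 ± 0.73 (adjusted p = 0.0498), all on the log2 scale. The class II share of usable counts was 0.0139% to 0.0530% in PBS and 0.0911% to 0.697% in caerulein libraries. The 4 calls held without PBS 8, and also without PBS 8 and caerulein 10. There were 3 with scaling that left acinar genes out and 3 with a term for the run of label numbers, where Cd74 was lost (adjusted p = 0.0611). They dropped to 0 without PBS 7, 15, 16 or 17, to 2 without caerulein 19 or 20 and to 3 without caerulein 10. Ciita, the activator of class II transcription, had 1, 0, 0, 2 and 0 counts in PBS and 3, 14, 1, 30 and 16 in caerulein libraries and was not tested. Markers of cells that carry class II also had their highest counts in caerulein libraries. The 6 macrophage markers summed to 7 to 178 counts in PBS and to 67, 7758, 180, 3406 and 1309 in caerulein 9, 10, 18, 19 and 20, and the 5 B cell markers to 16 to 82 in PBS and to 39, 3694, 186, 7045 and 4208 in caerulein libraries. In summed normalized CPM both marker sets overlapped between groups. Macrophage markers were at 157 to 2228 in PBS and 1104 to 17063 in caerulein libraries, and B cell markers at 336 to 1795 and 643 to 21529. The class II list did not overlap, at 375 to 956 and 1319 to 8016. The part of these cells in the class II result was not tested.

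Of 18 class I genes, which present peptides to CD8+ T cells, 7 were tested and 3 rose, beside 4.43% of all tested genes. B2m (chr2:122147686-122153083), the light chain of class I molecules, had 1, 11, 0, 1 and 0 counts in PBS and 6, 882, 18, 664 and 398 in caerulein libraries. PBS 8 overlapped caerulein 9, and the other PBS libraries lay below all caerulein libraries. Its log2 fold change was 4.60 ± 1.03 (SE, edgeR adjusted p = 0.0211). H2-D1, a heavy chain, rose by 3.84 ± 0.87 (adjusted p = 0.0211) and Psme2, a proteasome activator subunit, by 2.52 ± 0.69 (adjusted p = 0.0372). H2-K1 was at 1.66 (adjusted p = 0.151) and Psmb10, an immunoproteasome subunit, at -0.93 (adjusted p = 0.286).

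The 3 class I calls dropped to 0 without PBS 7, 15, 16 or 17 and to 1 without caerulein 10, 19 or 20, and 2 remained without PBS 8 and caerulein 10. Of 22 interferon-stimulated genes only Ifitm3, a membrane protein that limits virus entry, was tested, with a log2 fold change of 2.12 ± 0.69 (adjusted p = 0.0636). DESeq2 tested 18 of them and called 5 higher, beside 7.47% of all genes it tested.

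Matrix and stromal genes did not pass the test. Of 35 collagen and matrix genes, 34 were in the table, 16 were tested and 0 passed, and 11 had positive log2 fold changes (median 0.43). Dcn, decorin, a proteoglycan of collagen fibrils, had 5, 98, 12, 8 and 9 counts in PBS and 43, 2073, 85, 1125 and 963 in caerulein libraries (2.52 ± 0.80, adjusted p = 0.0566), and Fn1, fibronectin, was at 2.34 ± 0.93 (adjusted p = 0.119). Col1a1, the main chain of type I collagen, had 3, 195, 3, 7 and 2 counts in PBS, so that PBS 8 held 195 of 210, and 20, 506, 36, 131 and 125 in caerulein libraries (log2 fold change -0.17 ± 0.91, adjusted p = 0.903).

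Without PBS 8 alone, 13 matrix genes were tested, 12 were positive (median 3.11) and 9 passed, beside 223 higher of all 1306 genes tested there. Without caerulein 10 alone, 12 matrix genes were tested and 0 passed, beside 25 higher of 1100. Without both, 7 were tested and 5 passed, beside 98 higher of all 715 genes tested there. With library totals and all libraries kept, 5 of 16 passed and all 16 were positive. That scaling called 374 of all 1174 tested genes higher, with a median log2 fold change of 1.07, so these counts do not set matrix genes apart. Of 19 stellate, fibroblast and mural genes 6 were tested and 0 passed (Gsn 2.10 ± 0.72, adjusted p = 0.0724, and Lgals1 1.38 ± 0.68, adjusted p = 0.197), and 3 of 4 passed without PBS 8 and caerulein 10. Of 13 endothelial genes 1 was tested. Cav1, caveolin of membrane pits, had 1, 5, 0, 1 and 2 counts in PBS and 10, 131, 16, 64 and 89 with caerulein (2.60 ± 0.60, adjusted p = 0.0211), and the call was lost without PBS 7, 15, 16 or 17 (adjusted p from 0.0661 to 0.0771). The 5 endothelial markers summed to 5 to 14 counts in PBS and 12 to 104 in caerulein libraries and none was tested. Their summed normalized CPM overlapped, at 100 to 326 in PBS and 97.8 to 240 in caerulein libraries (medians 135 and 147). DESeq2 gave an adjusted p for 3 of them and called 0.

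A few early response genes rose. Of 20 immediate early genes, which cells switch on within minutes of a stimulus, 19 were in the table and 13 were tested. All 13 had a positive log2 fold change (median 1.75), and 3 rose, beside 4.43% of all tested genes. All 13 were also positive under the other scalings, with a median of 3.27 and 13 higher for library totals, 2.09 and 4 for RLE factors, and 1.64 and 2 for scaling without acinar genes. Over all 1174 tested genes these scalings gave medians of 1.07, 0.21 and -0.13 and called 374, 72 and 42 higher. Dusp1 (chr17:26505590-26562128), a phosphatase that turns off MAP kinases, had 0, 6, 0, 3 and 2 counts in PBS and 17, 1543, 35, 291 and 209 in caerulein libraries. The groups did not overlap, and caerulein 10 held most of the counts. The log2 fold change was 4.73 ± 0.97 (SE, edgeR adjusted p = 0.0175), and the call was lost without PBS 7, 15 or 17 (adjusted p from 0.0583 to 0.0639).

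Junb rose by 3.10 ± 0.88 (adjusted p = 0.0398) and Klf6 by 2.37 ± 0.70 (adjusted p = 0.0473) on the log2 scale, both transcription factors. Fos (1.99), Atf3 (1.89), Egr1 (1.44) and Jun (1.48) did not pass (adjusted p from 0.0576 to 0.169). The list's share of usable counts was 0.0255% to 0.148% in PBS, with PBS 8 highest, and 0.219% to 1.05% in caerulein libraries. Its summed normalized CPM overlapped, at 517 to 3555 in PBS and 3165 to 12792 in caerulein libraries. Without PBS 8 and caerulein 10, all 6 tested members passed, beside 98 higher of all 715 genes tested there. Without single libraries 0 to 9 passed, 0 of them without PBS 7, 15 or 17.

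Of 22 oxidative stress genes 11 were tested and 2 rose, beside 4.43% of all tested genes. They were Prdx1, a peroxidase (2.32 ± 0.66, adjusted p = 0.0407), and Fth1, the heavy chain of the iron store ferritin (3.23 ± 0.94, adjusted p = 0.0443). The metallothionein Mt1 was at -1.27 (adjusted p = 0.212). Library totals gave 9 of 11 higher (374 of all 1174 tested genes), DESeq2 6 of 16 (7.47% of all) and a term for the run of label numbers 4 of 11 (56 of all 1174). Both calls were lost with scaling that left acinar genes out and without any of PBS 7, 15, 16 and 17 and caerulein 10, 19 and 20. No heat shock gene passed (5 of 13 tested, Hspa8 2.67 ± 0.90, adjusted p = 0.0717, Hsp90ab1 1.08 ± 0.66, adjusted p = 0.288). Library totals called 4 of 5 higher and DESeq2 3 of 13. The fit without PBS 8 and caerulein 10 called 2 of 5, beside 98 higher of all 715 genes tested there.

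Genes of the secretory machinery did not pass the test with TMM scaling. Of 28 chaperones and stress genes of the endoplasmic reticulum 9 were tested and 0 passed, with a median log2 fold change of 0.77. Hspa5, the chaperone BiP, was at 2.03 ± 0.75 (adjusted p = 0.0938) and P4hb, a disulfide isomerase, at -0.39 ± 0.62 (adjusted p = 0.684). Of 36 genes of the translocon and secretory pathway 12 were tested and 0 passed, with a median of 0.71 (Sec61a1 0.19 ± 0.56, adjusted p = 0.83, Dad1 -0.49 ± 0.61, adjusted p = 0.603). The difference between these lists and the enzyme list was not tested. DESeq2 called 7 of 23 and 8 of 36 of them higher, beside 7.47% of all genes it tested. Library totals called 6 of 9 and 6 of 12 higher, beside 374 of all 1174 tested genes.

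**Figure D5:**
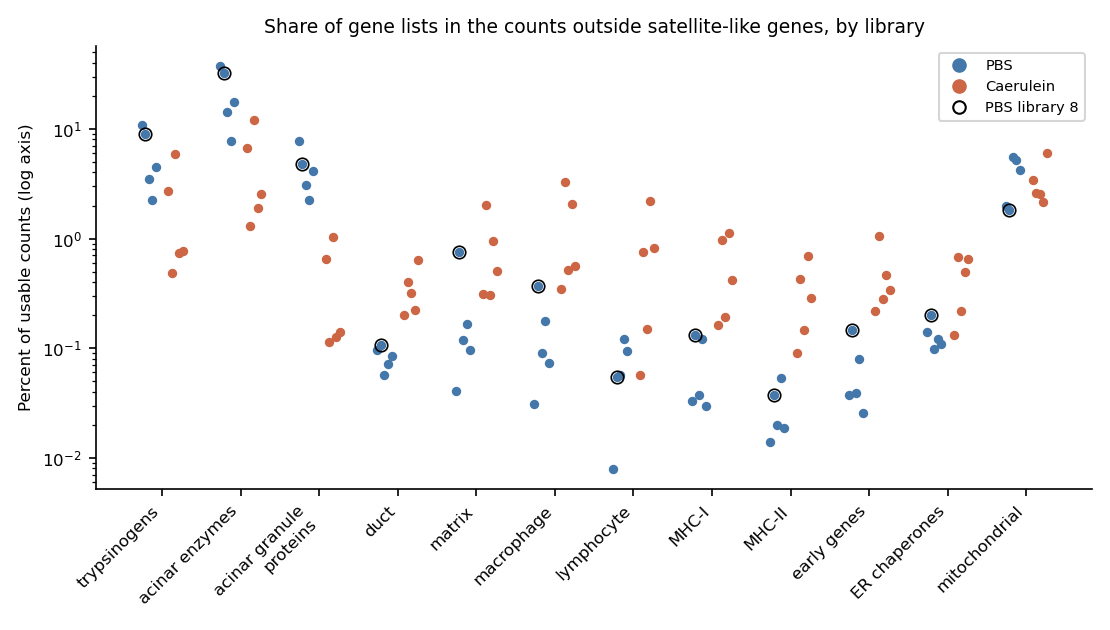
Percent of usable counts (log axis) that 12 gene lists took in each library, with PBS 8 ringed. Granule proteins lie lower in every caerulein library (0.113% to 1.03% against 2.23% to 7.77%), duct, MHC class II and early genes lie higher, and PBS 8 is the highest PBS point for matrix and macrophage genes. In summed normalized CPM the duct and the early gene lists overlap between groups.

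Other lists held few calls or none. Of 20 cell cycle genes 2 were tested and 0 passed (Tubb5 2.33 ± 0.74, adjusted p = 0.057, Mki67 0.18 ± 0.73, adjusted p = 0.875). Of 12 adipocyte and mesothelial genes 2 were tested and 0 passed (Upk3b 0.68 ± 0.66 and Lrrn4 1.15 ± 0.62, adjusted p = 0.506 and 0.235). Mitochondrially encoded transcripts did not pass (12 tested, median -1.13, mt-Co1 -1.24 ± 0.62, adjusted p = 0.201, mt-Cytb -0.06 ± 0.60, adjusted p = 0.957), and their share of usable counts did not differ past the threshold (3.75% ± 1.75 in PBS, 3.36% ± 1.56 in caerulein, exact permutation p = 0.706). Cytosolic ribosomal protein genes had 3 of 71 tested members higher, Rpl7, Rps7 and Rps3 (log2 fold changes 2.65, 2.03 and 2.33), a share near the 4.43% of all tested genes. Library totals called 48 of 71 higher, beside 374 of all 1174 tested genes, and DESeq2 21 of 81, beside 7.47% of all. With TMM, 0 were called without any of PBS 7, 15, 16 and 17 and caerulein 19 and 20. Their share of usable counts was 1.11% ± 0.353 in PBS and 2.86% ± 1.37 in caerulein libraries (SD, n = 5 each, two-sided exact permutation p = 0.0238, adjusted p = 0.0952 over 4 measures).

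Odorant and pheromone receptor genes belong to sensory neurons and are not markers of the pancreas. Of 1435 listed genes 78 were tested, 0 rose and 2 fell, Vmn1r77 (-2.43 ± 0.62, adjusted p = 0.0321) and Olfr635 (-2.44 ± 0.68, adjusted p = 0.0372), a share near the 2.64% of all tested genes. All 78 had negative log2 fold changes, with a median of -1.18, whereas 27 were positive with library totals and 1 with RLE factors. Their summed counts were 2391 to 5259 in PBS and 5308 to 7096 in caerulein libraries, which was 0.955% to 6.84% of the usable counts.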

How the data were processed

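Expected counts per gene, which the authors deposited without normalization, were used for the 10 pancreas libraries. Per the paper's methods and the labels, the authors made Smart-Seq2 libraries, mapped reads to mm10 with STAR 2.5.3, estimated the counts with RSEM 1.3.1 and compared groups with DESeq2 (1.24.0 in the submitters' processing notes, settings not given). Smart-Seq2 carries no molecular identifiers and marks no strand, so intervals cover counting error only, and overlapping genes cannot be told apart. Of 55471 genes, 55230 were named, with coordinates from GENCODE M21. Counts were rounded. Genes sharing at least 50% of their words of 15 bases with Gm10800, Gm10801 or Gm21738 (12 genes, satellite-like) were removed, then filterByExpr (minimum count 10), TMM scaling and the quasi-likelihood test of edgeR 4.0.16 (R 4.3.3) were applied to 5 against 5 libraries without covariates, with Benjamini-Hochberg adjustment at 0.05. Standard errors are the log2 fold change divided by the root of F.

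Members and gene lists were chosen with earlier results of these data known. Named genes are the 10 largest rises and falls among called genes whose groups do not overlap, up to 4 called members of each list by smallest p, and the 2 highest members of lists with no call. Csf1r, C1qb, C1qc, Igkc, Jchain, Ctrb1, Cpb1, Pnliprp1, Gm10334, Prss3, Try4, Try5, Try10, Xbp1, Cckar, Spink1, Col1a1, Krt7, Krt19, Gcg, Ciita, Fos, Atf3, Egr1, Jun, Mt1, H2-K1, Psmb10 and members of a list beyond its first 4 were named after their values were seen. DESeq2 1.42.0 and other scalings, filters and library choices were alternatives. None of the 20 within-group pairs agreed within sampling noise (chi-square per degree of freedom 3.21 to 27), so none was merged as a library deposited again; this does not show that libraries came from separate mice. On simulated counts for this comparison over 1174 genes, edgeR recovered 96.5% of 200 genes changed by a log2 fold change of 3, with 12 false calls. That share checks the procedure and is not an estimate of power for these libraries, whose calls depended on single libraries. Leaving out PBS 15 gave 4 higher and 9 lower genes. Among genes with fitted changes near that size, Ctrb1 and Spink1 did not pass, whereas H2-Eb1 and Erp27 did. Transcript identity came from local alignments of the longest GENCODE transcripts.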

Additional observations from a re-analysis of the deposited data

Results flagged for a closer look

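A library lay far from the other 4 of its group (gap over range above 0.71) in 6 of 48 groups of values checked. For independent, normally distributed values this cut-off flags about 1 in 20 groups. The groups here come from the same 10 libraries and include skewed and near-zero values, so 6 of 48 cannot be set against that rate. Sycn was at 192798 normalized CPM in PBS 7 against 25669 to 62166 in the other PBS libraries. PBS 7 had the smallest TMM factor (0.282), which raises its normalized CPM relative to its usable counts. Prss1 was at 105 normalized CPM in PBS 7, where the other PBS libraries held 0, and at 3294 in caerulein 18 against 123 to 989 in the other caerulein libraries. PBS 8 was apart for Lyz2 (939 normalized CPM against 46.6 to 80.4) and for B2m (138 against 0 to 23.3). Caerulein 10 was apart for Dusp1 (3394 against 280.2 to 889). No share of trypsinogen counts and neither the Sycn nor the Pnlip share of acinar counts was flagged.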

How the results depend on the processing

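The counts of higher and lower genes, 52 and 31, depended on the setting, while no called gene changed direction where tested. DESeq2 gave 639 and 94, library totals 374 and 19, no filter on low counts 1294 and 43, at least 10 counts in every library 8 and 20, and depth as a covariate 6 and 6. The label numbers 15 to 20 alone gave 200 and 107, the numbers 7 to 10 alone 2 and 4, and a term for the run of label numbers 56 and 18. The 2 alternatives that follow were chosen after seeing the data: leaving out PBS 8 and caerulein 10 gave 98 and 30, and leaving out rRNA-like and haemoglobin genes gave 86 and 41. Single libraries left out gave 4 to 223 higher genes (4 without PBS 15, 223 without PBS 8) and 4 to 100 lower genes (4 without PBS 7, 100 without caerulein 18). The causes were not tested. RLE factors, satellite-like genes kept, scaling without acinar genes and thinning each library to 69592 usable counts gave counts within 1.5 times of those above.

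Without 1 library, the caerulein minus PBS difference ran from 163761 to 289690 for usable counts (exact permutation p = 0.0238 without caerulein 9 and 0.0397 without caerulein 18), from -14.2 to -7.61 percentage points for the satellite share (p = 0.0317 and 0.0476 without the same libraries) and from 1.31 to 2.13 for the ribosomal protein share (p from 0.0556 to 0.0714 without PBS 7, 15, 16 or 17). For the mitochondrial share it ran from -1.06 to 0.0484, the reversed sign arising without PBS 15 (exact permutation p = 0.96). No paired analysis was possible because the PBS and caerulein libraries share no replicate numbers. Depth limits the low genes: a single count is worth up to 26.8 normalized CPM in PBS libraries.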

Other observations

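Called genes outside the lists are given as values, named after they were seen. Lars2, a mitochondrial leucyl-tRNA synthetase, had 3059, 2744, 1428, 1962 and 1345 counts in PBS 7, 8, 15, 16 and 17 and 344, 955, 440, 844 and 463 in caerulein 9, 10, 18, 19 and 20, with a log2 fold change of -3.72 ± 0.71 (edgeR adjusted p = 0.0128). It was the most abundant gene to fall that is not an acinar product. Lars2 was among the genes left out as rRNA-like in the alternative above. The other rRNA-like genes took 13.5% to 16.5% of usable counts in PBS and 10.5% to 13.9% in caerulein libraries. Whether the fall of Lars2 is separate from theirs was not tested. Saa3, an acute phase protein, had 1, 54, 5, 9 and 2 counts in PBS and 32, 8935, 102, 823 and 154 in caerulein libraries (4.43 ± 1.17, adjusted p = 0.0338), with most counts in caerulein 10. Nfkbia, the inhibitor of NF-kappaB (3.06 ± 0.83, adjusted p = 0.0356), and Cfb, complement factor B (3.11 ± 0.93, adjusted p = 0.049), were also higher. Amy2a1, an amylase copy, had 0 counts in all PBS libraries and 0, 250, 29, 208 and 693 in caerulein libraries. It was not tested by edgeR, and DESeq2 called it higher.

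Xist was at 2 to 34 counts in PBS and 8 to 315 in caerulein libraries, and 4 Y-linked genes at 0 to 11 and 1 to 34. The Y-linked counts were 2 and 11 in PBS 7 and 8 and 8 and 34 in caerulein 9 and 10, and at most 2 in the other 6 libraries, so the label numbers 7 to 10 and 15 to 20 differed in these genes in both groups.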
